A study of Mus musculus with 8 samples.

Results

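Striated muscle sarcomere genes encode the repeating contractile unit of heart and skeletal muscle, and their messenger RNA was followed here in whole mouse aorta. The 32 genes come from a fixed list of symbols, chosen by role with earlier results of these data known. They were among 18193 genes that had a probe set annotated to 1 symbol. They had 53 such probe sets, and for each gene the brightest of them, by its average across all 8 arrays, is described. The labels name the tissue as aorta, and the series asked what early loss of serum response factor (SRF) does to gene expression in the vessel wall.

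Controls were littermates with the genotype SRF-flex2neo, and mutants were SRF-flex2neo -SM22CreERT2ki/+, described as a smooth muscle specific SRF knockout. In the mutants a tamoxifen-dependent Cre recombinase sits in 1 allele of the SM22 gene, Tagln, which is active in smooth muscle, so it is not aimed at the cells in which most sarcomere genes are active. All mice, at 4 months of age, were given intraperitoneal tamoxifen (1 mg) for 3 days, controls included, and were killed 8 days afterwards. There were 4 control and 4 mutant arrays, and their titles number 2 sets, each with 2 controls and 2 mutants: controls 1 and 2 and mutants 1 and 2 in set 1, the others in set 2. The labels do not explain the set number or say that arrays are separate mice. The p-values therefore measure only the spread between arrays, which may be technical.

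A sarcomere is built from thick filaments of myosin and thin filaments of actin, held in register by the giant protein titin and anchored at Z-discs. Troponin on the thin filament makes contraction depend on calcium, and heart, slow skeletal and fast skeletal muscle each use their own isoforms of myosin chains and troponins. Smooth muscle of the artery wall has no sarcomeres and no troponin, and regulates its own myosin, encoded by Myh11, by phosphorylation. SRF binds CArG boxes in promoters of smooth, skeletal and cardiac muscle genes. In RNA of a whole tissue, fewer cells of a type and less RNA per cell cannot be told apart.

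Values are log2 values as deposited, so a difference of 1 is 2-fold. The array medians were 3.72 to 3.98, and mutant 2 correlated less well with the other arrays (0.961 to 0.974) than those did with each other (0.983 to 0.997). Srf itself averaged 10.30 ± 0.17 (SD, n = 4) in the controls and 10.10 ± 0.38 in the mutants, a difference of -0.20 (SE 0.19). The place of its probe set relative to the deleted part is unknown here, so this value checks no label. The 7 smooth muscle markers had mean levels of 13.58 to 13.72 in controls and 13.25 to 13.36 in mutants, so the arrays carried the labelled tissue. In mutant 2 the sympathetic neuron list stood at a mean of 10.07, against 2.53 to 3.04 in the controls, and the white fat list at 11.23 against 7.83 to 8.52. The brown fat list ran from 5.67 to 8.84 in controls, lowest in control 1, and from 7.20 to 10.16 in mutants. The endothelial list was at 7.67 to 8.58 in controls and 8.32 to 10.11 in mutants, the fibroblast list at 9.62 to 11.06 and 11.10 to 11.38, and the leukocyte list at 5.44 to 6.19 and 6.24 to 7.50.

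The widest ranges over the 8 arrays were in genes of the heart, some of them shared with skeletal muscle. They varied with the set or with single arrays. The fast skeletal Myl1 (range 4.06) varied more than the cardiac Mybpc3 (2.62). Of the 32 genes, 13 lay below the array median on all 8 arrays, 9 lay above it on all 8, and 10 crossed it. All 6 cardiac genes, all 4 genes shared by heart and slow skeletal muscle and all 5 shared by heart and skeletal muscle reached the array median on at least 1 array. Of the 17 genes of the skeletal classes alone, 13 never did. The map of the 32 genes by array shows this pattern.

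**Figure D1:**
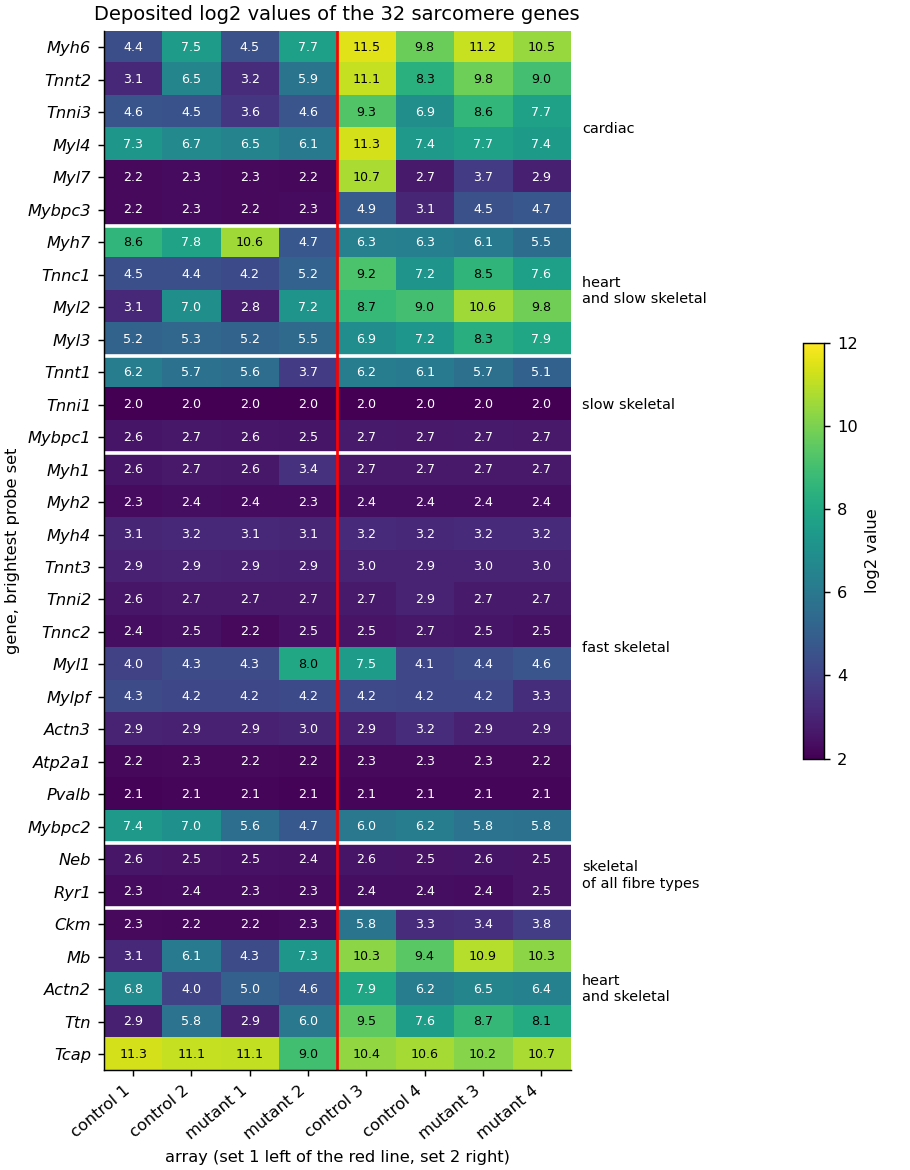
Deposited log2 value of each of the 32 sarcomere genes (rows, brightest probe set, grouped by class) on each of the 8 arrays (columns, set 1 left of the red line and set 2 right). Cardiac genes such as Myh6 run from 4.41 to 11.54 and are brighter in set 2, while skeletal genes such as Tnni1 stay between 1.99 and 2.03.

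Among the thick filament genes, Myh6, the alpha myosin heavy chain of heart muscle, had 4.41, 7.52, 11.54 and 9.77 in controls 1 to 4. In mutants 1 to 4 it had 4.49, 7.66, 11.15 and 10.46. Every array of set 2 was above every array of set 1, and within each set the mutants lay inside or next to the range of the controls. The mean was 6.02 ± 1.81 in set 1 (SD, n = 4) and 10.73 ± 0.78 in set 2, a difference of 4.71 (SE 0.92, limma adjusted p = 0.0136). The mutant minus control difference was 0.13 (SE 0.92, 95% confidence interval -2.05 to 2.31, adjusted p = 0.962). Genotype differences up to the ends of that interval, 2-fold in either direction among them, are not excluded by these arrays. The second probe set of Myh6 stayed between 3.10 and 3.46 on all arrays.

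Myl2, the regulatory myosin light chain of the ventricle and of slow skeletal fibres, had 3.11, 6.98, 8.68 and 9.01 in controls and 2.83, 7.16, 10.59 and 9.85 in mutants. The essential light chain Myl3, of the same muscles, had 5.17, 5.32, 6.92 and 7.24 in controls and 5.17, 5.45, 8.31 and 7.87 in mutants. Both were higher in all arrays of set 2, with mutants 3 and 4 above controls 3 and 4. Set 2 exceeded set 1 by 4.51 (SE 1.15, adjusted p = 0.0338) for Myl2 and by 2.31 (SE 0.23, adjusted p = 0.00141) for Myl3. Between genotypes Myl3 differed by 0.54 (SE 0.23, limma adjusted p = 0.53), with 0.07 in set 1 and 1.01 in set 2. A dimmer probe set of Myl3 had 2.53, 5.49, 7.25 and 7.56 in controls and 2.64, 5.63, 9.05 and 8.58 in mutants, so in set 1 it separated arrays that the brightest one did not. The dimmest ran from 2.51 to 4.88. Its genotype difference was -0.13, with -0.75 in set 1 and 0.49 in set 2. Its set difference of 1.02 did not pass (limma adjusted p = 0.0751).

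Control 3 carried the light chains of the atrium far above every other array. Myl7, the atrial regulatory light chain, had 2.24, 2.28, 10.73 and 2.72 in controls and 2.27, 2.23, 3.72 and 2.89 in mutants. Myl4, the atrial essential light chain, had 7.28, 6.69, 11.34 and 7.39 in controls and 6.47, 6.06, 7.74 and 7.43 in mutants. Control 3 exceeded control 4, the other control of its set, by 8.01 for Myl7 and 3.95 for Myl4. For Myl2 and Myl3 control 3 was lower than control 4, with differences of -0.33 and -0.32. Sln, the calcium pump regulator sarcolipin, is abundant in the atrium and was looked up after these values were seen. It had 8.54 in control 3 and 2.07 to 2.76 on the other 7 arrays. Nppa, an atrial hormone gene, did not follow: it was at 5.04 in control 3, 5.30 in control 4 and 6.46 in mutant 3.

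**Figure D2:**
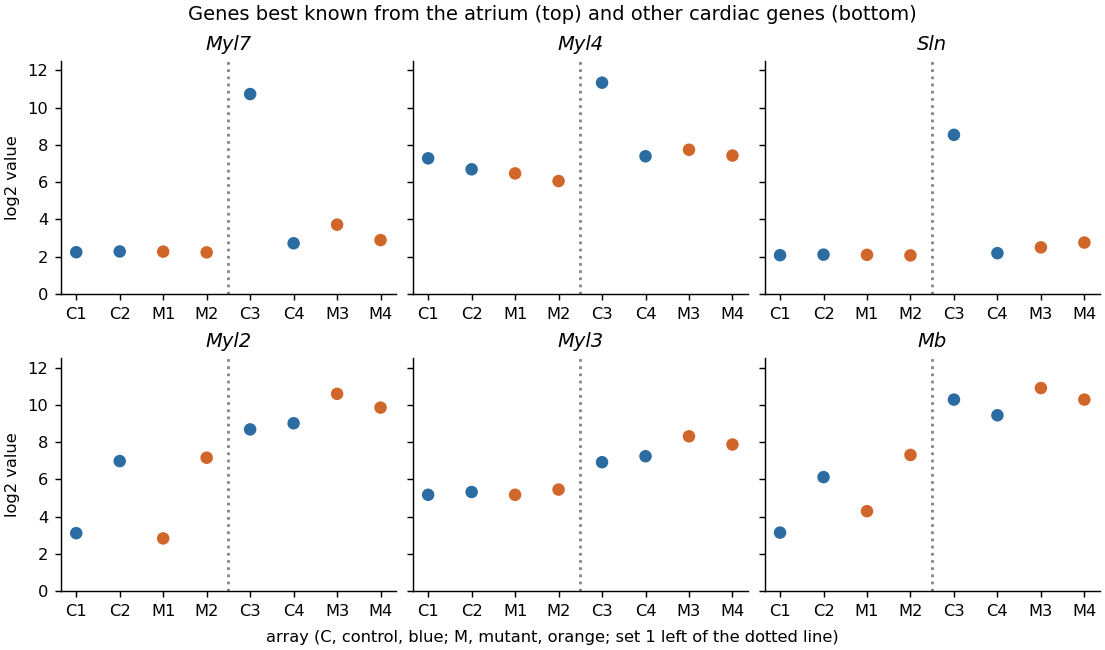
Deposited log2 values (y axis) of 6 genes on each array (x axis; C, control, blue; M, mutant, orange; set 1 left of the dotted line). Myl7, Myl4 and Sln are highest in control 3 at 10.73, 11.34 and 8.54, while Myl2, Myl3 and Mb are highest in mutant 3.

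The genotype differences of the atrial light chains depended on control 3, fully for Myl7 and in part for Myl4. Myl7 differed by -1.72 between mutants and controls (SE 1.66, limma adjusted p = 0.695) and by 0.23 without control 3. Myl4 differed by -1.25 (SE 0.79, adjusted p = 0.606) and by -0.35 without control 3. Neither passed with or without it. In set 1, which does not hold control 3, the difference was -0.01 for Myl7 and -0.72 for Myl4, where both mutants were below both controls.

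Myh7, the beta myosin heavy chain of ventricle and slow fibres, went its own way. It had 8.59, 7.77, 6.35 and 6.31 in controls and 10.58, 4.70, 6.12 and 5.54 in mutants. The highest and the lowest array were both mutants of set 1, and the 4 arrays of set 2 lay between 5.54 and 6.35. Set 2 minus set 1 was -1.83 (SE 1.14, adjusted p = 0.273), opposite in sign to Myh6 but not passing. Without mutant 2 it passed as lower in set 2 (-3.01, adjusted p = 0.0142), as with array weights (-3.37, adjusted p = 0.0122). A probe set annotated to both Myh6 and Myh7, which represents neither gene here, had 9.07 in mutant 1, 4.81 in mutant 2 and 10.08 in control 3.

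The troponins of the heart were higher in set 2, as was Myh6, but within set 1 only Tnnt2 followed Myh6 in both groups. Tnnt2, cardiac troponin T, had 3.14, 6.55, 11.11 and 8.35 in controls and 3.25, 5.86, 9.81 and 9.02 in mutants. Tnni3, cardiac troponin I, had 4.61, 4.51, 9.27 and 6.94 in controls and 3.59, 4.64, 8.62 and 7.73 in mutants. Tnnc1, the troponin C of heart and slow muscle, had 4.46, 4.44, 9.16 and 7.17 in controls and 4.24, 5.16, 8.53 and 7.63 in mutants. In all 3 the sets did not overlap, control 3 was the highest array and mutant 3 the second highest. Set 2 exceeded set 1 by 4.87 for Tnnt2 (SE 0.98, limma adjusted p = 0.0154), 3.80 for Tnni3 (SE 0.53, adjusted p = 0.00412) and 3.55 for Tnnc1 (SE 0.46, adjusted p = 0.00324). The genotype differences were -0.30, -0.19 and 0.08, with adjusted p of 0.915, 0.901 and 0.953.

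Titin and the oxygen and energy genes of muscle were also higher in set 2. Ttn, the gene of titin, had 2.88, 5.82, 9.53 and 7.60 in controls and 2.91, 5.99, 8.66 and 8.14 in mutants. Mb, which encodes the oxygen carrier myoglobin, had 3.14, 6.12, 10.28 and 9.44 in controls and 4.29, 7.31, 10.90 and 10.28 in mutants. Set 2 exceeded set 1 by 4.08 for Ttn (SE 0.90, limma adjusted p = 0.0207) and by 5.01 for Mb (SE 0.84, adjusted p = 0.00769), the largest set difference of the 32 genes. Mb was higher in mutants by 0.95 (SE 0.84, adjusted p = 0.672), less than its spread. The muscle creatine kinase gene Ckm had 2.27, 2.23, 5.83 and 3.26 in controls and 2.21, 2.28, 3.37 and 3.81 in mutants, so it left the lowest levels only in set 2. Its set difference of 1.82 (SE 0.53) just missed the threshold (adjusted p = 0.051), and passed without control 3 (1.21, adjusted p = 0.00521) or control 4 (2.24, adjusted p = 0.0341). Its genotype difference was -0.48 (SE 0.53, adjusted p = 0.728), and 0.13 without control 3. Mybpc3, the cardiac myosin-binding protein C, rose from 2.27 ± 0.04 in set 1 to 4.29 ± 0.81 in set 2 (adjusted p = 0.0101).

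Within set 1, 5 genes also separated arrays of the same genotype in both groups, 2 of the cardiac class and 3 shared with skeletal muscle. Control 2 exceeded control 1 by 3.11 for Myh6, 3.41 for Tnnt2, 3.87 for Myl2, 2.98 for Mb and 2.94 for Ttn. Mutant 2 exceeded mutant 1 by 3.17, 2.61, 4.33, 3.02 and 3.08 for the same genes. These gaps inside a group were larger than the genotype difference of any of these genes. They are those of the brightest probe sets. A dimmer probe set of Ttn, also higher in set 2, had no such gap, with 0.05 in controls and -0.03 in mutants. One of Tnnt2 had it, with 3.61 and 2.42, and one of Myl3, with 2.96 and 2.99. Other genes of the heart did not show this gap in both groups, or went the other way. Control 2 minus control 1 was -0.10 for Tnni3, -0.02 for Tnnc1, 0.07 for Mybpc3, 0.04 for Myl7, -0.59 for Myl4, -0.82 for Myh7 and -2.77 for Actn2. Mutant 2 minus mutant 1 was 1.05 for Tnni3 and 0.92 for Tnnc1, in the direction of the 5 genes but smaller. It was 0.07 for Mybpc3, -0.04 for Myl7, -0.41 for Myl4 and for Actn2, and -5.88 for Myh7. Array numbers follow sample order and pair nothing across the groups.

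Counted over all 32 genes with no filter on dim probe sets, 8 were higher in set 2 and 0 lower at an adjusted p under 0.05, which is 25.0%, against 10.3% of all 45037 probe sets. That share covers both directions and every probe set, dim ones included, while each gene counts by its brightest probe set. The 2 shares are therefore not fully alike. The 8 genes were Myh6, Tnnt2, Tnni3, Mybpc3, Tnnc1, Myl3, Mb and Ttn. With the filter, 21 of the 32 genes were tested and 9 passed, Myl2 being the ninth, where 21.4% of probe sets passed, 10.8% higher and 10.6% lower. Mybpc3, Ckm and Myl7 passed the filter only through high values in set 2, so the filtered count is no support of its own. For Ckm and Myl7 it was control 3 alone that lifted the mean over the lowest one kept, 2.97. By class, 4 of 6 cardiac genes passed, 3 of 4 shared by heart and slow muscle, 2 of 5 shared by heart and skeletal muscle, and 0 of the 6 tested genes of the skeletal classes alone. The sets did not overlap in 12 of the 21 genes tested, against 31.7% of probe sets. These 12 include Mybpc3, Ckm and Myl7, so this count is no support of its own either. The filtered count of 9 was 6 without mutant 3, where Tnnt2, Myl2 and Ttn no longer passed (adjusted p = 0.0507, 0.0946 and 0.0621), and 7 to 11 without any other array. The 11 without mutant 2 include Myh7 and Tcap, both lower in set 2 (Tcap -0.68, adjusted p = 0.0171). Myl2 passed in only some settings: its adjusted p was 0.0564 without the filter, 0.0873 without control 1, 0.0675 without control 3, 0.0819 without control 4, 0.0527 without mutant 1 and 0.0837 without mutant 4. Ttn missed it also without control 3 (0.057) and without mutant 4 (0.0525).

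**Figure D3:**
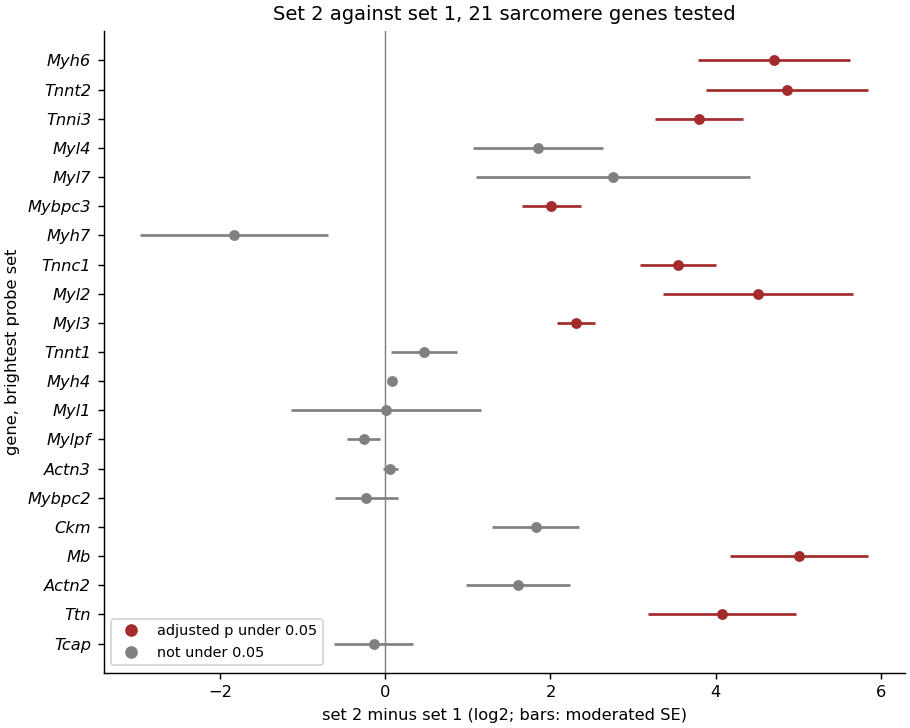
Set 2 minus set 1 on the log2 scale (x axis; points, estimate; bars, limma's moderated SE) for the 21 sarcomere genes tested (y axis). Genes at an adjusted p under 0.05 are red, from 2.01 for Mybpc3 to 5.01 for Mb, and Myh7 lies at -1.83.

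The means of the classes by array describe how heart and skeletal isoforms varied. With each gene centred on its own mean over the 8 arrays, the cardiac class had -2.05, -1.06, 3.77 and 0.34 in controls 1 to 4 and -2.32, -1.24, 1.55 and 1.00 in mutants 1 to 4. The fast skeletal class had -0.03, 0.01, 0.21 and -0.01 in controls and -0.14, 0.18, -0.07 and -0.14 in mutants. The cardiac class thus spanned the widest range, with both groups spread over it. In the fast class 9 of 12 genes, and in the slow class 2 of 3, lay below the array median on all 8 arrays. The flat means of these classes therefore rest mostly on dim probe sets. Of the other fast genes, Myl1 ran from 3.95 to 8.01, Mybpc2 from 4.74 to 7.36 and Mylpf from 3.30 to 4.31. The median set difference was 3.28 for the cardiac class, 2.93 for the genes of heart and slow muscle, 1.82 for those of heart and skeletal muscle, 0.09 for the slow and 0.04 for the fast skeletal class. The median genotype difference was -0.24, 0.31, -0.48, -0.02 and -0.01 in the same order, beside -0.04 over all probe sets tested. These medians turned with single arrays. The cardiac one was 0.39 without control 3, 0.20 without mutant 1 and 0.06 without control 2, but -0.88 without control 1 or control 4 and -0.81 without mutant 2. That of heart and slow muscle was -0.11 without control 1, and that of heart and skeletal muscle 0.16 without control 3.

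**Figure D4:**
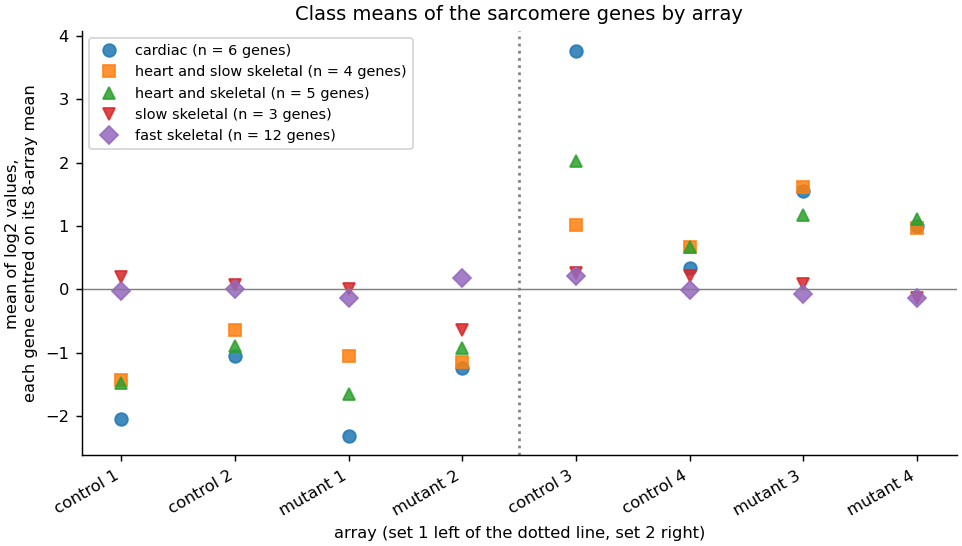
Mean of gene-centred log2 values (y axis) of 5 classes of sarcomere genes on each array (x axis, set 1 left of the dotted line). The cardiac class reaches 3.77 in control 3 and falls to -2.32 in mutant 1, and the fast skeletal class stays between -0.14 and 0.21.

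The isoforms of fast skeletal muscle were at the low end of the table. The heavy chains Myh1, Myh2 and Myh4, the troponins Tnnt3, Tnni2 and Tnnc2, the Z-disc protein gene Actn3, the calcium pump Atp2a1 and the calcium buffer Pvalb lay below the array median on all 8 arrays. Their values ran from 2.09 for Pvalb to 3.41 for Myh1 in mutant 2. The slow isoforms Tnni1 (1.99 to 2.03) and Mybpc1 (2.55 to 2.71), the thin filament ruler Neb (2.44 to 2.62) and the calcium release channel Ryr1 (2.30 to 2.51) did the same. The deposited table gives no detection calls, so whether these genes were transcribed at all is not shown. The other 3 genes of the fast class, Myl1, Mylpf and Mybpc2, lay above it on most or all arrays. Myl1 is a fast skeletal light chain. It had 3.95, 4.32, 7.53 and 4.14 in controls and 4.34, 8.01, 4.36 and 4.62 in mutants, high in control 3 and mutant 2 alone. Of the 7 skeletal muscle markers, 5 lay below the array median on all 8 arrays, and the list mean was 3.14 to 3.93 in controls and 3.16 to 3.60 in mutants. Of the 8 cardiomyocyte markers, 3 did (Nppb, Nkx2-5 and Tbx5), and the list mean was 3.82 to 6.54 in controls and 3.71 to 6.39 in mutants. Both marker lists share genes with the sarcomere list. The skeletal one holds Myh4, Myh1, Tnnt3, Ryr1 and Ckm, and the cardiomyocyte one Myh6, Tnnt2 and Tnni3. Of the 5 dim skeletal markers, only Cacna1s is not a sarcomere gene described above. The marker values therefore partly repeat those of the sarcomere genes and are no separate support. The part of admixed heart or skeletal muscle in any of these values was not tested.

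In 3 further genes, mostly above the array median, the sets overlapped. Tcap, the titin cap protein of the Z-disc, had 11.34, 11.14, 10.38 and 10.64 in controls and 11.08, 8.97, 10.20 and 10.74 in mutants. Mutant 2 was the lowest array, and the other arrays of set 1 lay above those of set 2. Its genotype difference was -0.63 (SE 0.48, limma adjusted p = 0.649). Actn2, the alpha-actinin of heart and skeletal Z-discs, had 6.81, 4.04, 7.90 and 6.18 in controls and 5.05, 4.64, 6.54 and 6.38 in mutants, with control 3 the highest array. It differed by -0.58 (SE 0.63, adjusted p = 0.724). Mylpf, a fast skeletal regulatory light chain, lay between 4.16 and 4.31 on 7 arrays and at 3.30 in mutant 4, and differed by -0.24 (SE 0.20, adjusted p = 0.666).

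The question of the study is the mutant against the control, and no sarcomere gene passed there. Of the 32 genes, 0 passed an adjusted p of 0.05 in limma with or without the filter, as for all probe sets (0%). At an unadjusted p under 0.05 there were 2 of the 21 genes tested, against 9.55% of probe sets, and the same number of all 32 without the filter, against 6.09%. Of the 21, 7 had higher and 14 lower means in mutants. The groups did not overlap in 2 genes, against 3.00% of probe sets, and both were isoforms of skeletal muscle. Leaving out any array, either set, or control 3 and mutant 2 together gave 0 as well.

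Mybpc2, the fast skeletal myosin-binding protein C, had 7.36, 7.02, 6.01 and 6.23 in controls and 5.63, 4.74, 5.79 and 5.78 in mutants. All mutants were below all controls, by little in set 2. The controls averaged 6.66 ± 0.64 (SD, n = 4) and the mutants 5.49 ± 0.50. The difference of -1.17 had an SE of 0.38 and a limma adjusted p = 0.465. Set 1 alone gave -2.00 and set 2 alone -0.34 (interaction 1.67, limma adjusted p = 0.747). Tnnt1, the slow skeletal troponin T, had 6.20, 5.74, 6.21 and 6.14 in controls and 5.58, 3.74, 5.71 and 5.10 in mutants. The highest mutant was just below the lowest control, and mutant 2 was the lowest array. The difference was -1.04 (SE 0.40, limma adjusted p = 0.508), and -0.62 without mutant 2, the only array whose omission moved it by over 1.5 times. In these arrays the smooth muscle list was lower in mutants too, with 7 of 7 genes lower and a median of -0.27. Over all probe sets tested the median was -0.04. The list ran from -0.78 for Des to -0.01 for Acta2. It includes Tagln (-0.29), of which 1 allele carries Cre in the mutants. The part of fewer smooth muscle cells in the Mybpc2 and Tnnt1 values was not tested.

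**Figure D5:**
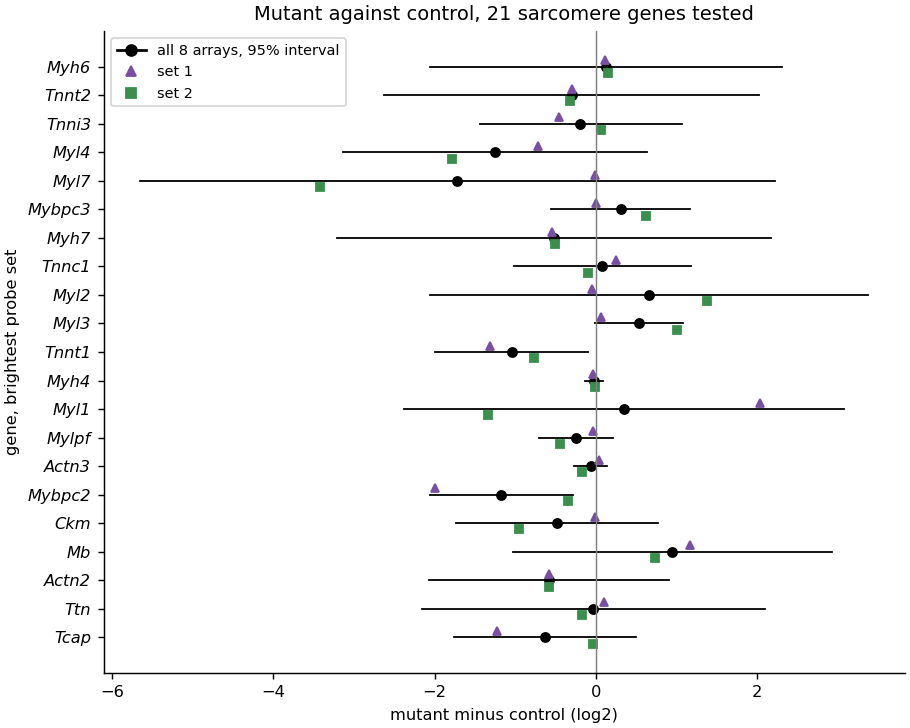
Mutant minus control on the log2 scale (x axis) for the 21 sarcomere genes tested (y axis): black points and lines, estimate and 95% confidence interval over 8 arrays; triangles, set 1; squares, set 2. The intervals of Mybpc2 (-2.06 to -0.28) and Tnnt1 (-1.99 to -0.09) lie below 0 before adjustment, and that of Myl7 is the widest.

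No sarcomere gene had a genotype difference that changed between the sets at an adjusted p under 0.05 in limma (0.0518% of probe sets did). Unadjusted, 2 of 21 did, Mybpc2 and Myl3, against 5.12% of probe sets.

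Other striated muscle genes showed both behaviours. Of a list of 42 further genes of the sarcomere and its membranes, metabolism and regulators, 40 had a probe set and 28 were tested. In set 2, 11 were higher and 0 lower at an adjusted p under 0.05, where 10.8% of probe sets were higher, among them the mitochondrial creatine kinase Ckmt2 (3.89), the M-band gene Myom2 (3.86), the heart actin Actc1 (2.92) and the cardiac calcium buffer Casq2 (2.24). Without the filter Actc1, Trdn and Ryr2 no longer passed (adjusted p = 0.0695, 0.0695 and 0.0609), and Myom2, at 2.54 in set 1, passed the filter only through set 2. Between genotypes 0 of 28 passed, and 8 had an unadjusted limma p under 0.05, against 9.55% of probe sets, all with lower means in mutants. The 4 with the smallest p were Cmya5, a costamere protein gene (-1.03, SE 0.31, adjusted p = 0.452), Casq1, the calsequestrin of fast skeletal muscle (-1.84, SE 0.56, adjusted p = 0.462), the Z-disc gene Ldb3 (-0.45, SE 0.15, adjusted p = 0.47) and Xirp1, of cell junctions in muscle (-0.44, SE 0.15, adjusted p = 0.47). Casq1 had 8.80, 7.86, 8.33 and 8.21 in controls and 6.59, 4.55, 7.18 and 7.52 in mutants, without overlap. Of the 7 transcription factors in the list, Myod1, Myog and Myf6 of skeletal muscle and Nkx2-5, Tbx5 and Gata4 of heart stayed between 1.92 and 2.54 on all arrays. Tbx20, a heart transcription factor, ran from 4.11 to 6.47, above the array median on all 8.

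Since SRF acts through CArG boxes, the 250 bases before the transcription start were searched on both strands. Of the 32 genes, 27 had a window in RefSeq (build GRCm38.p6), and Actn3, Neb, Tcap, Tnni2 and Tnnt3 did not. A CArG box was found for 3 of the 27 genes (11.1%) and for 439 of 27025 genes of the same table (1.62%). A site for MEF2, a family of muscle transcription factors, was found for 5 (18.5%), Ttn, Mybpc3, Myh4, Myh1 and Pvalb, against 3.42% of all genes. Only exact matches counted, to CCWWWWWWGG for CArG and YTAWWWWTAR for MEF2 (W is A or T, Y is C or T, R is A or G). Sites with a mismatch or further away were not looked for, so genes without a match may still have one. In Myh4 the 2 motifs did not overlap. The sequences are shown because they place an SRF motif in 1 ventricular, 1 atrial and 1 fast skeletal gene with unlike values here. They run 5′ to 3′ on the gene's strand, with the CArG box in capitals. Myl3 is at chr9:110763428-110763677 (plus strand), Myl7 at chr11:5898783-5899032 (minus strand) and Myh4 at chr11:67237562-67237811 (plus strand).
Myl3: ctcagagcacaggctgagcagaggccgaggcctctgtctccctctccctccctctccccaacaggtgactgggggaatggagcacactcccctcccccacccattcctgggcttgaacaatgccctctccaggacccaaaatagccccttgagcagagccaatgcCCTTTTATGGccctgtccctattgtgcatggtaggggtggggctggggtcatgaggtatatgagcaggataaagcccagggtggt
Myl7: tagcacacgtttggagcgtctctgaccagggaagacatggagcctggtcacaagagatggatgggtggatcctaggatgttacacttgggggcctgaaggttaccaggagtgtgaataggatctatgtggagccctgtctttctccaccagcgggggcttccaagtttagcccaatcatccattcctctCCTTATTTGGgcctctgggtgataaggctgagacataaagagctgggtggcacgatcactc
Myh4: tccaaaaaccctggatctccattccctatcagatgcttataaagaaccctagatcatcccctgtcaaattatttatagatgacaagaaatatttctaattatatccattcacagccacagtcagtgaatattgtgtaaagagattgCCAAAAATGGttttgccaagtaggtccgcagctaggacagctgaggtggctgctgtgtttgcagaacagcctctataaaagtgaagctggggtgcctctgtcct
The box begins 85 bases before the start in Myl3, 61 in Myl7 and 104 in Myh4. None of the 3 genes passed between genotypes: Myl3 differed by 0.54, Myl7 by -1.72 through control 3, and Myh4 by -0.02 (SE 0.05, limma adjusted p = 0.863) at a level of 3.09 to 3.24. A motif match is a description of these letters and not a measured SRF site.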

How the data were processed

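Total RNA of mouse aorta was measured on 8 Affymetrix arrays, each made from 2 ug. The deposited table holds log2 values for 45037 probe sets, from 0.90 to 15.82. The log2 scale was read from the values, since no label states it, and the deposited log2 values were used unchanged. GCOS is named in the submitters' processing notes, and the background correction and normalization were not stated there. No per-sample column was left unused (0). Platform annotation gave 1 symbol for 34945 probe sets, several for 932 and none for 9160.

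Dim probe sets, the lowest 40% by average, were set aside, which kept 27029 (smallest average 2.97). limma 3.58.1 in R 4.3.3 fitted genotype and set, with a mean-variance trend, two-sided tests and Benjamini-Hochberg adjustment over all probe sets tested. A second fit added their product. SE is limma's moderated standard error. Full values are given for genes passing, not overlapping between groups or among the 10 with the smallest p. The members, lists and rule were chosen with earlier results of these data known. Motifs were searched with Python 3.11.15. The fit was tested on simulated data. Probe levels of different genes are not compared, and the number of arrays limits the precision.
Alternatives changed the filter (none, or stricter), the scaling (quantile, or centring on array medians), the model (without set, trend or with array weights), the arrays (each left out, each set alone) and the probe sets (their mean per gene).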

Additional observations from a re-analysis of the deposited data

Results flagged for a closer look

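In 56 groups of 4 arrays, 42 of single genes and 14 of class means (the mean of all 32 genes among them), 1 array stood apart by Dixon's ratio in 10, and chance marks about 1 group in 20. In 4 of the 10 it was control 3: Myl7 at 10.73 (next control 2.72), Myl4 at 11.34 (7.39), Myl1 at 7.53 (4.32) and the fast skeletal class mean at 0.21 (0.01), the last carried by Myl1. In mutant 2, Myl1 was at 8.01 (next mutant 4.62) and Mybpc2 at 4.74 (5.63). The others were small or at low levels: Tnnt1 at 5.74 in control 2 (6.14), Mylpf at 4.31 in control 1 (4.19) and at 3.30 in mutant 4 (4.16), and Actn3 at 3.25 in control 4 (2.94). Genes share arrays, so these are not separate events. Myl7 and Actn3 passed the filter only through the array flagged, so their flags are no support of their own.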

How the results depend on the processing

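No sarcomere gene passed between genotypes in any setting run (lowest adjusted p 0.238), and without the replicate block (no set term) the count was also 0. Of 392 reruns of single genotype differences, 351 kept their sign and 41, in 12 genes, turned. Over all probe sets, 10 passed between genotypes with array weights, 0 to 11 with 1 array left out (11 without control 3) and 41 without control 3 and mutant 2, a setting chosen after seeing the data. The set count was 10010 with array weights and 3391 (without control 4) to 7506 (without mutant 2) with 1 array left out. The interaction count was 36 with no filter, 1 with the stricter filter (60%), 29 without control 3 and mutant 2, and 0 to 2746 with 1 array left out (2746 without mutant 1). The cause was not tested.

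Genotype differences that turned were, with array weights, Myh6 (-0.51), Myh7 (0.71), Tnnc1 (-0.13), Myl2 (-0.25) and Myl1 (-0.40). In set 1 alone they were Myl2 (-0.05), Actn3 (0.04) and Ttn (0.10), and in set 2 alone Tnni3 (0.07), Tnnc1 (-0.09) and Myl1 (-1.34). Without control 3 and mutant 2 they were Myh6 (-0.22), Tnni3 (0.13), Myl7 (0.30), Myh7 (0.96), Myl2 (-0.50) and Ckm (0.14). With 1 array left out, the ranges were -0.50 to 0.77 for Myh6, -0.99 to 0.38 for Tnnt2, -0.70 to 0.23 for Tnni3, -2.98 to 0.23 for Myl7, -0.11 to 0.60 for Mybpc3, -1.69 to 0.66 for Myh7, -0.28 to 0.51 for Tnnc1, -0.06 to 1.67 for Myl2, -0.72 to 1.36 for Myl1, -0.11 to 0.02 for Actn3, -0.90 to 0.13 for Ckm and -0.68 to 0.56 for Ttn. Set differences of Myh7 (-3.37, lower in set 2) and Ckm (1.75) passed with array weights, that of Actn2 without control 1 (2.17), and that of Ckm with quantile normalization (1.83), median centring (1.92) and the mean of its probe sets (0.93). Without control 3 and mutant 2, Myh7 (-3.31) and Ckm (1.20) passed. Set differences turned for Tnnt1 with array weights (-0.01), and with 1 array left out ran from -1.01 to 1.08 for Myl1, -0.03 to 0.11 for Actn3 and -0.68 to 0.16 for Tcap. The median of Neb and Ryr1 (-0.01) was -0.08 with median centring, -0.06 in set 1 and 0.04 in set 2.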
